A study of Mus musculus with 4 samples.

Results

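Transcripts of 42 glycolysis and HIF-responsive genes were followed by RNA sequencing in mouse embryonic stem (ES) cells that carry a tagged p300 and in their parental cells. The members were chosen by symbol: 4 glucose and lactate carriers, 18 glycolytic enzymes, 4 regulatory kinases, 3 subunits of hypoxia-inducible factor (HIF) and 13 HIF targets outside glycolysis, called HIF-only targets here. All 42 symbols had a match in GENCODE M21 among the 54838 gene identifiers of the tables. Aldoa matched a second identifier with 27 to 45 counts per library, which was set aside. The knock-in line MLC460 was made from E14 cells (E14Tg2a.4, strain 129/Ola) with CRISPR/Cas9 and expresses endogenous p300, a histone acetyltransferase and coactivator, with mEGFP fused to its N-terminus. It was compared with wild-type E14 cells of the same strain. Each line gave 2 biological replicates, and only 1 knock-in line was sampled, so a difference between the lines can include any that arose while the line was derived. All cells were grown with serum and leukemia inhibitory factor on gelatin.

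Glycolysis splits glucose to pyruvate in the cytosol, and lactate dehydrogenase turns pyruvate into lactate, which leaves the cell through monocarboxylate carriers. HIF is a dimer of an alpha subunit, Hif1a or Epas1, with Arnt. Prolyl hydroxylases mark the alpha subunits for destruction when oxygen is present, so HIF is controlled mostly at the level of protein. Its targets include most steps of glycolysis and many genes outside it, for blood vessel growth, mitochondrial removal, collagen modification and pH control. ES cells in culture are known for a high glycolytic rate.

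HIF binds a short core, ACGTG or GCGTG. The sequence before the transcription start is shown for the 4 members that passed the test of the lines once GC content was corrected (Ddit4, P4ha2, Adm and Pfkfb3), and for Ldha, a glycolytic enzyme that did not. The bases are from RefSeq on GRCm38.p6, read 5′ to 3′ on the gene's own strand and ended before the first base that GENCODE M21 gives as exon. Capitals mark ACGTG or GCGTG on either strand, so that CACGC and CACGT are the same cores read from the other strand, and CACGTG holds a core on both strands at overlapping positions. The windows are chr10:59951835-59952020 (minus strand) for Ddit4, chr11:54100674-54100923 (plus) for P4ha2, chr7:110627407-110627656 (plus) for Adm, chr2:11502102-11502340 (minus) for the downstream of the 2 RefSeq starts of Pfkfb3, and chr7:46845554-46845803 (plus) for Ldha. Those of Ddit4 and Adm lie outside the annotated gene, and those of P4ha2, Pfkfb3 and Ldha lie within the span of longer transcripts without touching an exon.
Ddit4: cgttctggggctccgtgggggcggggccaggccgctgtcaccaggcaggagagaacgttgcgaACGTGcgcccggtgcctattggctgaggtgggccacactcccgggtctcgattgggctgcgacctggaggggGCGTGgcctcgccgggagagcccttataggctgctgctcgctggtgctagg
P4ha2: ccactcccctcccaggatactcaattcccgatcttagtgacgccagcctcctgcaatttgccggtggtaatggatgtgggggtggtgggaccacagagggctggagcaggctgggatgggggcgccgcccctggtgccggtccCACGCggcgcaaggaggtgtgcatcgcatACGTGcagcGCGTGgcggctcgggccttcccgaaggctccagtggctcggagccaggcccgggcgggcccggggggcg
Adm: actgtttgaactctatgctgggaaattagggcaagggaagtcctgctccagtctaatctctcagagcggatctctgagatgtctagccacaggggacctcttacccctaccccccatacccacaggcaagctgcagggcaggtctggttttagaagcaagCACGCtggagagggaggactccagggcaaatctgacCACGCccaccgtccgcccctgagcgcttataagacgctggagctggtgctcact
Pfkfb3: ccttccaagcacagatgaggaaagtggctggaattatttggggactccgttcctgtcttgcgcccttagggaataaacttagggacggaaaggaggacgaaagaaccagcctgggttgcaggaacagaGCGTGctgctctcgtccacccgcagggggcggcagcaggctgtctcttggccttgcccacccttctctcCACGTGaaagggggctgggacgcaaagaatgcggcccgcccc
Ldha: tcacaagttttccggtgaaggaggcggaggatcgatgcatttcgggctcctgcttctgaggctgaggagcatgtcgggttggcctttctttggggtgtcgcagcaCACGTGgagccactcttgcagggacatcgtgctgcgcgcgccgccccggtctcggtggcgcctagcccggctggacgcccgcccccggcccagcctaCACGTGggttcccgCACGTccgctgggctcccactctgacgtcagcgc

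The Ldha window held 5 core positions, P4ha2 and Pfkfb3 had 3 each, and Ddit4 and Adm had 2 each. Ldha and Pfkfb3 each have a second RefSeq start, whose window held 1 core position in either gene; for both genes the window with more cores is the one printed. Over the whole set, 38 of the 42 members had a window in the RefSeq table used (all but Slc2a3, Bnip3l, Ndrg1 and Epas1), with 52 windows of 250 bases in all. The core was found in 43 of these 52 windows (82.7%), in 22 of 29 windows of the enzymes (75.9%) and in 11 of 12 windows of the HIF-only targets (91.7%). Some windows of Pfkm, Aldoa and Eno1 overlap each other, so the same cores were counted more than once there. Among all 32851 RefSeq windows of the same length the share was 38.6%. The members' windows were also richer in GC, with a median of 61.0% GC against 52.4% over all windows, and how far that sets the share was not tested. A match of the letters is a description of the sequence and does not show that HIF binds there.

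Counts assigned to genes came to 25266051 and 18946731 in the knock-in libraries and to 26553998 and 21791128 in the wild-type libraries. The libraries carried ES cell transcripts: 10 of 10 ES markers were tested, none of them passed the threshold, and their summed level was 13836 to 14233 TPM in knock-in and 13240 to 14039 TPM in wild-type cells. TPM here means counts per kilobase of exon, scaled to the same total in each library as TPM is by convention. Ep300, the tagged gene, had 181 and 210 CPM in knock-in cells and 209 and 210 CPM in wild-type cells, where CPM is the count relative to TMM-scaled library size (by edgeR, adjusted p = 0.804). Between the lines, 10 of 15191 tested genes met the threshold (edgeR's quasi-likelihood F test, adjusted p under 0.05). Wild-type 2 stood apart from the other libraries by GC content: over the tested genes, its deviation from the mean of the other 3 libraries had a Spearman correlation with transcript GC of 0.65, and over the 42 members of 0.64. Counts of calls and the medians of the larger groups are therefore given also after a correction for GC content, as are the fold changes of many single members, while shares and sums of levels are uncorrected. Where a call turned on a wild-type library, it is given also without that library. A fit without 1 wild-type library leaves a lone one, which is assumed to vary as the knock-in pair does. In bulk RNA, fewer cells with a transcript and less transcript per cell cannot be told apart.

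**Figure D1:**
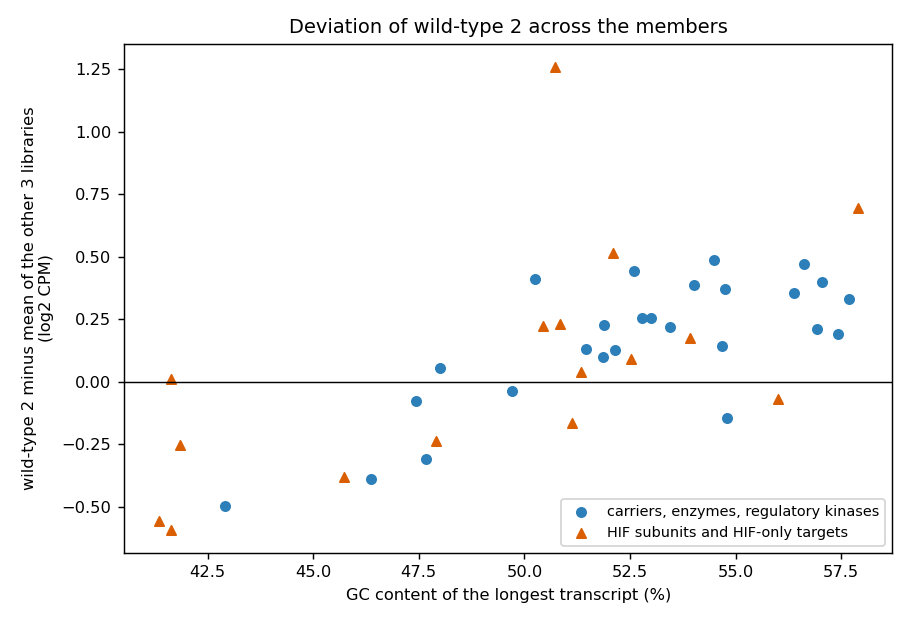
Deviation of wild-type 2 from the mean of the other 3 libraries (log2 CPM, vertical axis) against the GC content of the longest transcript (percent, horizontal axis), 1 point per member, with circles for carriers, enzymes and regulatory kinases and triangles for HIF subunits and HIF-only targets. Wild-type 2 was above the other 3 libraries for 29 of 42 members, and the members of low GC content lie mostly below the line.

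All 42 members were detected in every library, and all passed the filter on low counts. Gapdh, which oxidises glyceraldehyde 3-phosphate, was the most abundant, with 4969 and 4989 TPM in knock-in cells and 4944 and 6591 TPM in wild-type cells, and ranked 10 among all genes by its mean. Pkm, the muscle-type pyruvate kinase gene, came next at 3190 and 3331 TPM in knock-in cells and 3288 and 4017 TPM in wild-type cells. The values of the 4 libraries did not overlap between Gapdh and Pkm, nor between Pkm and Ldha, which makes lactate. Ldha, Pgk1, Eno1 and Aldoa followed with means over all libraries of 2715, 2545, 2280 and 2170 TPM, and each overlapped its neighbour in this order. Tpi1 and Pgam1, at 1191 and 1088 TPM, lay below them without overlap between Aldoa and Tpi1. These 8 transcripts, 1 for each step from aldolase to lactate dehydrogenase, were the 8 highest of the 42. Reads lost as ambiguous are not in these levels. Counting the strands apart gave Aldoa 56.1% more reads, so its place among the 8 is not settled.

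The upper steps and the carriers were lower on the same scale. Slc2a1 and Slc2a3, the glucose carriers GLUT1 and GLUT3, averaged 758 and 566 TPM. Hk2, Gpi1 and Pfkl, which carry glucose to fructose 1,6-bisphosphate, averaged 390, 345 and 342 TPM. Among HIF-only targets only Ddit4, an inhibitor of mTORC1 signalling, stood in that range, with a mean of 507 TPM. The other HIF-only targets averaged from 120 TPM for Bnip3l, a mitophagy receptor, to 2.05 TPM for Adm, the vasodilator peptide adrenomedullin, and Car9, a cell-surface carbonic anhydrase and a widely used marker of hypoxia, averaged 2.29 TPM. Summed over members, the enzymes made up 21289 and 21823 TPM in knock-in cells against 22489 and 25419 TPM in wild-type cells. The HIF-only targets together made up 805 and 935 TPM in knock-in cells against 1392 and 1206 TPM in wild-type cells. The knock-in libraries lay below both wild-type libraries in both sums of TPM, and wild-type 2 was the highest by a wide margin in that of the enzymes. In CPM, which takes no account of length, the enzymes summed to 26440 and 25833 in knock-in cells against 25284 and 31098 in wild-type cells, so the groups overlapped on that scale. For the HIF-only targets the groups did not overlap in CPM either, at 753 and 839 in knock-in cells against 1147 and 976 in wild-type cells. Ddit4 was the largest part of the HIF-only sums, at 180 and 197 CPM in knock-in cells and 329 and 367 CPM in wild-type cells. Without Ddit4 the groups overlapped on both scales.

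**Figure D2:**
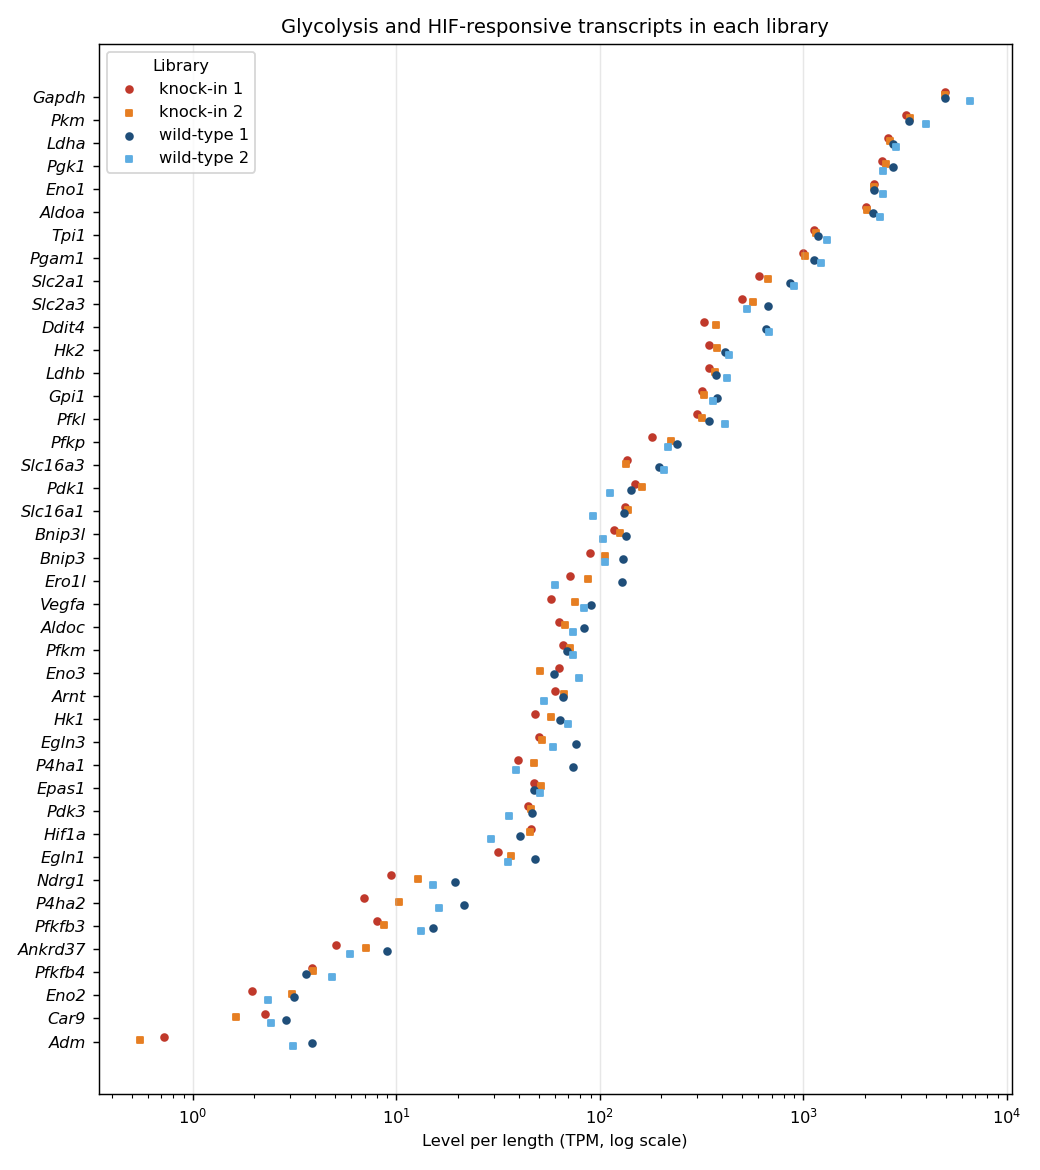
Level per length of each member (TPM, log scale, horizontal axis) in each of the 4 libraries, with members ordered from the highest mean level at the top to the lowest at the bottom. The enzymes from Gapdh at 4944 to 6591 TPM down to Pgam1 at 999 to 1215 TPM hold the top 8 places, and Adm, Car9 and Eno2 the bottom places.

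Where a step of glycolysis is encoded by several paralogs, 1 of them made up most of the transcripts in several families. Shares below are of TPM within a family. Hk2, the insulin-responsive hexokinase, made up 87.8% and 86.7% of the hexokinase transcripts in knock-in cells and 86.6% and 86.0% in wild-type cells, and Hk1, the hexokinase of most adult tissues, the rest. Aldoa made up 97.0% and 96.8% of the aldolase pair with Aldoc in knock-in cells and 96.4% and 97.0% in wild-type cells. Ldha, the muscle-type subunit that favours lactate, made up 88.3% and 87.8% of the pair with Ldhb in knock-in cells and 88.1% and 87.1% in wild-type cells. In these families the leading paralog and its share were nearly alike in all 4 libraries.

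The enolases were led by Eno1, with 97.2% and 97.6% in knock-in cells and 97.2% and 96.8% in wild-type cells. Eno3, the muscle enolase, had 2.24% to 3.10% and Eno2, the neuronal enolase, 0.0856% to 0.138% over the 4 libraries. Eno1 has a near-identical intronless copy, Eno1b, with 74783 counts over the 4 libraries beside 343288 for Eno1, and reads can fall to either. With Eno1b counted as an enolase of its own, Eno1 had 61.0% and 62.6% in knock-in cells and 61.2% and 57.8% in wild-type cells, and Eno1b 35.9% to 40.2% over the libraries. For every other member, near-identical copies held at most 0.602% of the counts, the value of Pgam1. Gapdh had 178 such copies, Ldha 12 and Pkm 8. Multimapping reads were left out, so reads that a member lost to its copies cannot be counted here.

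Phosphofructokinase, the main control point of glycolysis, was divided among 3 genes. Pfkl, the liver type, had 55.0% and 51.9% in knock-in cells and 52.5% and 58.6% in wild-type cells. Pfkp, the platelet type, had 33.0% and 36.5% in knock-in cells and 36.9% and 30.8% in wild-type cells. Pfkm, the muscle type, had 12.1% and 11.6% in knock-in cells and 10.6% and 10.6% in wild-type cells. Pfkl led in every library per length, but Pfkp is the longer transcript and had more counts in each library, so that Pfkl held a mean of 42.3% of the counts. Pyruvate kinase M1 and M2 are splice forms of Pkm and were not separated by gene counts.

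The carriers were more evenly divided. Slc2a1 made up 54.8% and 54.3% of the glucose carrier pair in knock-in cells and 56.1% and 62.8% in wild-type cells. For lactate, Slc16a3, the carrier MCT4 of strongly glycolytic cells, made up 50.5% and 49.5% of the pair with Slc16a1, the widespread carrier MCT1, in knock-in cells and 59.7% and 69.1% in wild-type cells. Each knock-in library thus had a smaller share of Slc16a3 than either wild-type library, with means of 50.0% ± 0.657 in knock-in and 64.4% ± 6.65 in wild-type cells (SD, n = 2 each, exact permutation p = 0.333, two-sided). With 2 libraries a side no p below 0.333 can be reached in this test, and this holds for every share here. Shares are uncorrected for GC content, by which wild-type 2 stood apart, and it was 56.6% for Slc16a3 and 42.9% for Slc16a1.

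Among the regulators, Pdk1 led Pdk3, both kinases that keep pyruvate out of the mitochondrial pyruvate dehydrogenase, with 77.0% and 77.9% in knock-in cells and 75.5% and 75.9% in wild-type cells. Pfkfb3 makes the activator fructose 2,6-bisphosphate. It held 67.5% and 69.0% of the pair with Pfkfb4 in knock-in cells and 80.7% and 73.4% in wild-type cells. Pfkfb1, which is not a member, had 8.10 and 9.05 TPM in knock-in cells and 8.86 and 10.6 TPM in wild-type cells. Pfkfb3 had 8.02 and 8.72 TPM in knock-in cells, so it did not lead Pfkfb1 there, and 15.1 and 13.2 TPM in wild-type cells. Of the HIF alpha subunits, Epas1, which encodes HIF-2 alpha, held 50.7% and 53.1% in knock-in cells and 53.8% and 63.4% in wild-type cells, and Hif1a the rest. Which of them led depended on the counting: with reads kept that overlap a gene on the other strand, Epas1 averaged 47.1%. Their GC content differed as well, at 52.5% for Epas1 and 41.3% for Hif1a, and the shares are uncorrected for it. The groups did not overlap for the shares of Slc2a1, Slc16a3, Hk2, Pfkm, Pdk1, Pfkfb3 and Epas1 (exact permutation p = 0.333 each, two-sided), and they overlapped for Pfkl, Pfkp, Aldoa, Eno1 and Ldha.

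**Figure D3:**
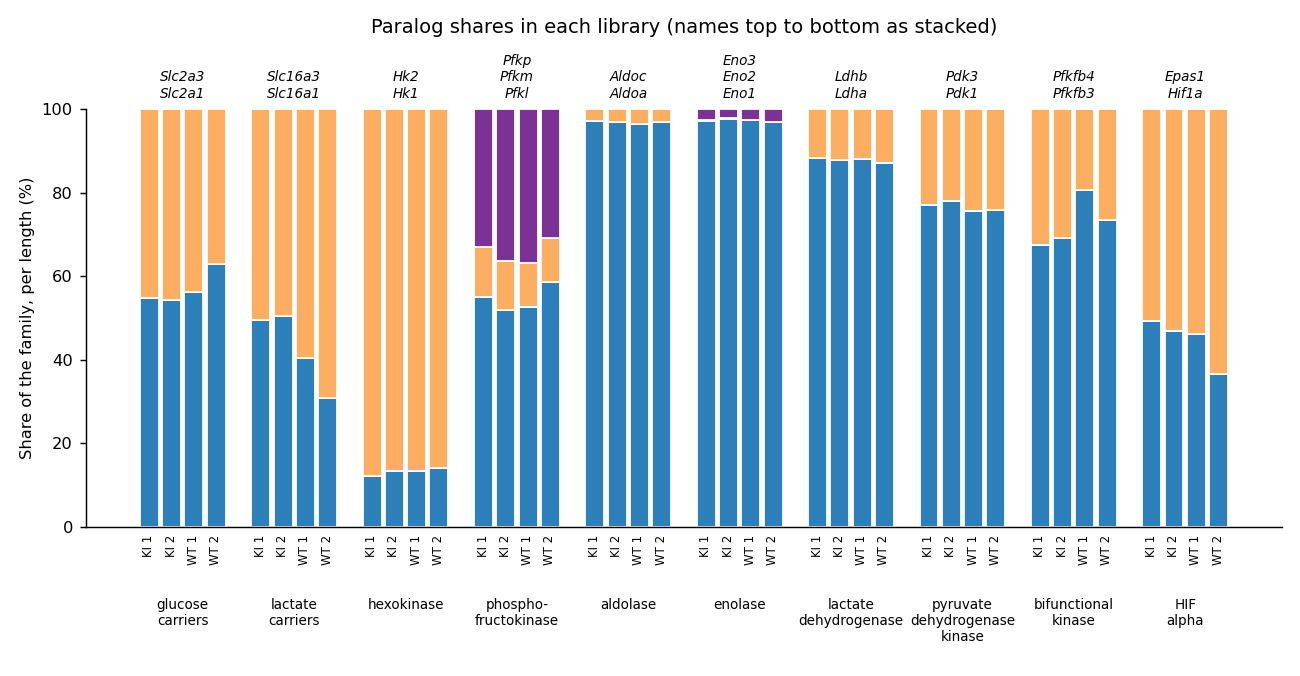
Share of each paralog in its family (percent of TPM, vertical axis) in knock-in 1, knock-in 2, wild-type 1 and wild-type 2 (KI 1 to WT 2), with the names above each group of bars in the order they are stacked. Hk2, Aldoa, Eno1 and Ldha fill most of their bars in all 4 libraries, while the carriers, phosphofructokinases and HIF alpha subunits are divided.

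The comparison of the lines asks whether these transcripts differ when p300 carries the tag. No member passed the threshold in edgeR's quasi-likelihood test with all 4 libraries: 0 of 42 were higher and 0 lower, and 8 of the 42 had an unadjusted p under 0.05. Over all genes 0.0658% passed in edgeR, and 1662 of 15191 had an unadjusted p under 0.05. DESeq2 called 2 members lower, P4ha2 and Ddit4, where 0.811% of the 14307 genes it gave an adjusted p passed as lower. The signs were uneven, with 35 members below 0 and 7 above and a median log2 fold change, knock-in over wild-type, of -0.17, against a median of 0.0010 and 49.9% of genes below 0 over all 15191. After the GC correction 25 members were below 0 and 17 above, with a median of -0.03, against a median of 0.06 and 41.4% of genes below 0 over all genes in that fit, and 4 members passed as lower and 0 as higher. Over all genes, 0.856% passed as lower in that fit. The 4 were Ddit4, P4ha2 and Adm among the HIF-only targets and Pfkfb3 among the regulatory kinases.

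Further members passed when 1 wild-type library was left out. Those that passed as lower whichever wild-type library was kept were the 4 above and Slc2a1, Slc16a3, Vegfa and Ndrg1. Both fits use the same knock-in pair, and the share of all genes passing in both was not counted. With the GC correction and all 4 libraries, Slc2a1, Slc16a3, Vegfa and Ndrg1 did not pass. Their log2 fold changes were then -0.23, -0.29, -0.24 and -0.50. The other calls made without 1 wild-type library depended on which was kept. Without wild-type 1, so with wild-type 2 alone for the parental line, 5 members passed as higher and 14 as lower, where 19.0% of all genes passed as higher and 13.1% as lower. Without wild-type 2, 0 members passed as higher and 12 as lower, where 0.711% of all genes passed as higher and 3.68% as lower. Split at the median GC content of the members, 20 of 21 members of high GC were below 0 before the correction and 11 after it. Of the 21 of low GC, 15 were below 0 before and 14 after.

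**Figure D4:**
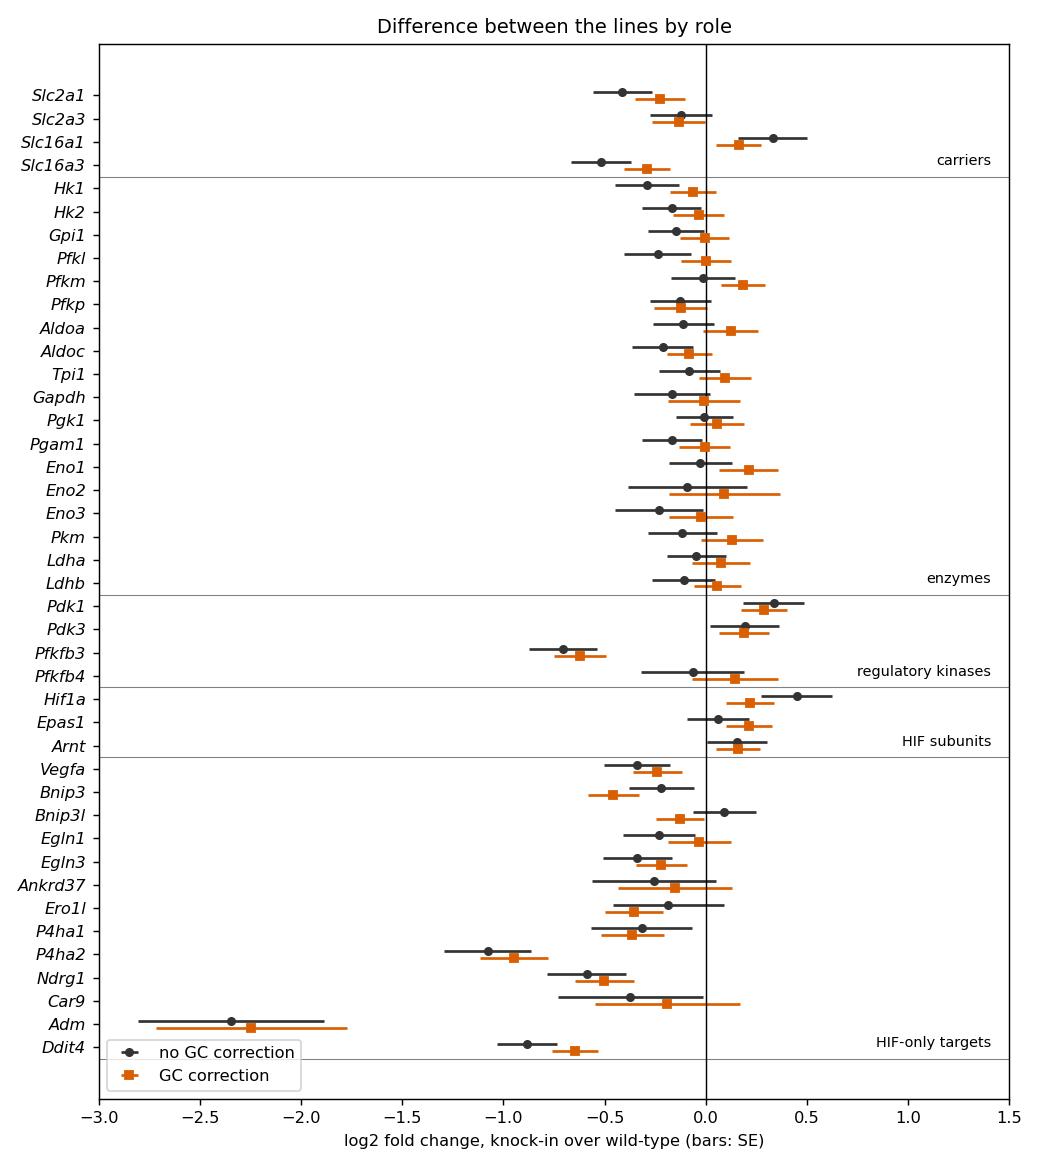
Log2 fold change of each member, knock-in over wild-type (horizontal axis), by role, with circles for the fit without and squares for the fit with GC correction, and bars for the standard error. The 18 enzymes lie between -0.29 and 0.21 in both fits, while Ddit4, P4ha2 and Adm lie farthest to the left.

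The glycolytic enzymes showed small differences that none of the fits with all 4 libraries called, and none of the 18 had an unadjusted p under 0.05 in edgeR without the GC correction. All 18 had a log2 fold change below 0, from -0.29 to -0.0074, with a median of -0.12. With the GC correction 8 were below 0 and 10 above, and the median was 0.03. Without wild-type 2 the median was -0.035, with 10 below 0 and 8 above. Both knock-in libraries lay below both wild-type libraries for 6 of the 18 and above for 0, against 23.9% of all genes below and 23.4% above. In knock-in 1, knock-in 2 and wild-type 1 the median enzyme deviated from its mean by -0.05, -0.06 and -0.05 on the log2 CPM scale, and in wild-type 2 by 0.16.

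Hk1 had 130 and 148 CPM in knock-in cells and 155 and 184 CPM in wild-type cells, which put the log2 fold change at -0.29 with a standard error of 0.16 (edgeR, adjusted p = 0.501), and at -0.06 with the GC correction. Pfkl had 633 and 638 CPM in knock-in cells and 654 and 845 CPM in wild-type cells, which put the log2 fold change at -0.24 with a standard error of 0.16 (edgeR, adjusted p = 0.576), and at 0.0008 with the correction. Gapdh, often used as a loading control, had 6504 and 6196 CPM in knock-in cells and 5863 and 8395 CPM in wild-type cells. For Pfkl and Gapdh, wild-type 2 was the high value, and for Gapdh the groups overlapped. Without wild-type 1 the log2 fold change of Gapdh was -0.40 (by edgeR, adjusted p = 0.0057), and without wild-type 2 it was 0.10 (adjusted p = 0.736). With all 4 libraries it was -0.17, and -0.0088 with the GC correction. Hk1, Pfkl, Pgam1, Eno3 and Pkm likewise passed as lower without wild-type 1 (by edgeR, adjusted p = 0.000798, 0.00111, 0.0457, 0.0023 and 0.0465), and none of the 18 passed without wild-type 2.

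The leading paralogs of the other steps did not pass in any fit that was run. Hk2 had 652 and 675 CPM in knock-in cells against 701 and 791 CPM in wild-type cells (log2 fold change -0.17, SE 0.15, edgeR adjusted p = 0.654). Aldoa had 1880 and 1801 CPM in knock-in cells against 1845 and 2130 CPM in wild-type cells, at -0.11 without and 0.12 with the GC correction. Eno1 had 3784 and 3583 CPM in knock-in cells against 3415 and 4094 CPM in wild-type cells, at -0.03 without and 0.21 with the correction (by edgeR, adjusted p = 0.474 with it). For Aldoa and Eno1 the groups overlapped, and the sign changed with the correction. Ldha had 2719 and 2635 CPM in knock-in cells against 2627 and 2909 CPM in wild-type cells, which put the log2 fold change at -0.05 with a standard error of 0.15 (edgeR, adjusted p = 0.915). Pgk1, an X-linked gene whose product makes the first ATP of the pathway, was the closest to 0, with 1726 and 1721 CPM in knock-in cells against 1770.1 and 1695 CPM in wild-type cells.

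Of the carriers, 3 were nominally lower and Slc16a1 nominally higher. Slc16a3 (ENSMUSG00000025161, GRCm38 chromosome 11, 120948480 to 120960868) had 229 and 215 CPM in knock-in cells and 297 and 339 CPM in wild-type cells. Its log2 fold change of -0.52 (SE 0.15) did not pass (by edgeR, adjusted p = 0.302), and it was -0.29 with the GC correction (adjusted p = 0.219). Slc2a1 (ENSMUSG00000028645, GRCm38 chromosome 4, 119108711 to 119137983) had 675 and 704 CPM in knock-in cells and 864 and 970 CPM in wild-type cells, which put the log2 fold change at -0.41 with a standard error of 0.15 (edgeR, adjusted p = 0.408), and at -0.23 with the correction. Both carriers were lower in each knock-in library than in each wild-type library, and both passed as lower without wild-type 1 (by edgeR, adjusted p = 1.5e-07 for Slc16a3 and 6.76e-05 for Slc2a1) and without wild-type 2 (0.00218 and 0.0441). Slc16a1 had 187 and 182 CPM in knock-in cells and 167 and 126 CPM in wild-type cells. Its log2 fold change came to 0.33 with a standard error of 0.17 (edgeR, adjusted p = 0.484) and passed as higher only without wild-type 1 (0.55, adjusted p = 8.03e-06). The GC correction put it at 0.16. Slc2a3 had 1149 and 1224 CPM in knock-in cells and 1397 and 1186 CPM in wild-type cells, and the groups overlapped.

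Among the regulatory kinases, Pfkfb3 and Pdk1 lay on opposite sides of 0. Pfkfb3 (ENSMUSG00000026773, GRCm38 chromosome 2, 11471433 to 11554077) had 19.2 and 19.8 CPM in knock-in cells and 32.8 and 30.8 CPM in wild-type cells. The pairs did not overlap, and the libraries of each line lay close together. The log2 fold change came to -0.705 with a standard error of 0.17 (edgeR, adjusted p = 0.206) without the GC correction and -0.62 (SE 0.13, adjusted p = 0.0299) with it, where it passed. It passed as lower as well without wild-type 1 (by edgeR, adjusted p = 3.52e-05) and without wild-type 2 (7.69e-06). Pdk1 had 366 and 376 CPM in knock-in cells and 319 and 269 CPM in wild-type cells, which put the log2 fold change at 0.34 with a standard error of 0.15 (edgeR, adjusted p = 0.455), and at 0.29 with the correction (adjusted p = 0.219). Pdk1 and its paralog Pdk3, with 35.9 and 35.1 CPM in knock-in cells and 34.0 and 28.2 CPM in wild-type cells, passed as higher only without wild-type 1 (by edgeR, adjusted p = 0.000208 and 0.0441). Pfkfb4 stayed between 5.05 and 7.22 CPM in all libraries, with overlapping groups.

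None of the HIF subunits passed, and all 3 had log2 fold changes above 0, with a median of 0.15. Hif1a (ENSMUSG00000021109, GRCm38 chromosome 12, 73901375 to 73947530) had 86.0 and 80.2 CPM in knock-in cells and 68.8 and 52.9 CPM in wild-type cells. Wild-type 2 was the lowest, and the Hif1a transcript is the poorest in GC among the members, at 41.3%. The log2 fold change came to 0.45 with a standard error of 0.175 (edgeR, adjusted p = 0.434) with all libraries, and 0.22 (SE 0.12, adjusted p = 0.354) with the GC correction. Without wild-type 1 it was 0.65 (by edgeR, adjusted p = 6.23e-07), and without wild-type 2 it was 0.26 (adjusted p = 0.209). Epas1 had 83.8 and 86.1 CPM in knock-in cells and 75.8 and 87.0 CPM in wild-type cells, which put the log2 fold change at 0.06 with a standard error of 0.15 (edgeR, adjusted p = 0.896), and at 0.21 with the GC correction. Arnt had 153 and 161 CPM in knock-in cells and 151 and 131 CPM in wild-type cells, which put the log2 fold change at 0.15 with a standard error of 0.15 (edgeR, adjusted p = 0.694). These are transcript levels, and the amount of HIF protein was not measured here.

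The values farthest from 0 were among the HIF-only targets, and the 3 that passed with the GC correction were Ddit4, P4ha2 and Adm. Of the 13, 12 had a log2 fold change below 0, with a median of -0.34 and a range from -2.35 to 0.09. With the GC correction all 13 were below 0, with a median of -0.36, and 3 passed as lower. The median was -0.19 without wild-type 1 and -0.49 without wild-type 2, where 5 and 9 of the 13 passed as lower, against 13.1% and 3.68% of all genes, and 1 and 0 as higher, against 19.0% and 0.711%. Both knock-in libraries lay below both wild-type libraries for 8 of the 13, above for 0, and the groups overlapped for 5, against 23.9% of all genes below and 23.4% above. The difference between the enzymes and the HIF-only targets was not tested as such.

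Ddit4 (ENSMUSG00000020108, GRCm38 chromosome 10, 59949669 to 59951834), whose window of 186 bases is shown first among the sequences, had 180 and 197 CPM in knock-in cells and 329 and 367 CPM in wild-type cells. Its means were 188 ± 12.0 CPM in knock-in and 348 ± 26.6 CPM in wild-type cells (SD, n = 2 each). The log2 fold change came to -0.89 with a standard error of 0.15 (edgeR, adjusted p = 0.103) without the GC correction and -0.65 (SE 0.12, adjusted p = 0.0147) with it. Ddit4 is the member of highest GC content, at 57.9%, and wild-type 2 was its highest library. The log2 fold change was -0.82 without wild-type 2 and -0.96 without wild-type 1. It was also the only member outside the enzymes and carriers among the 15 most abundant.

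P4ha2 (ENSMUSG00000018906, GRCm38 chromosome 11, 54100095 to 54131665), a subunit of the prolyl hydroxylase that modifies collagen, had 13.8 and 19.2 CPM in knock-in cells and 38.5 and 31.0 CPM in wild-type cells. The log2 fold change came to -1.08 with a standard error of 0.22 (edgeR, adjusted p = 0.148) without the GC correction and -0.95 (SE 0.17, adjusted p = 0.0140) with it. Both pairs were apart, and the log2 fold change was -0.92 without wild-type 1 and -1.25 without wild-type 2. Its paralog P4ha1 had 51.3 and 58.6 CPM in knock-in cells and 87.5 and 49.2 CPM in wild-type cells, so the wild-type libraries lay on either side of the knock-in pair. For P4ha1 the log2 fold change was -0.69 without wild-type 2 (by edgeR, adjusted p = 3.55e-07) and 0.16 without wild-type 1 (0.339).

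Adm (ENSMUSG00000030790, GRCm38 chromosome 7, 110627661 to 110629820) had the largest difference and the fewest reads, with 9 and 5 counts in knock-in and 49 and 34 counts in wild-type libraries. That is 0.370 and 0.268 CPM in knock-in cells against 1.78 and 1.54 CPM in wild-type cells. The log2 fold change came to -2.35 with a standard error of 0.46 (edgeR, adjusted p = 0.146) without and -2.25 (SE 0.47, adjusted p = 0.0342) with the GC correction, and it passed as lower without wild-type 1 (0.00737) and without wild-type 2 (0.00788). Together with Ddit4, P4ha2 and Pfkfb3, Adm passed in each of the 4 fits that used the GC correction. Over all genes, 130 of 15191 (0.856%) passed as lower with the GC correction and all 4 libraries, and 254 with the replicate block added. The 4 fits share libraries, and the share of all genes passing in all 4 of them was not counted.

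The remaining HIF-only targets showed smaller or less even differences. Ndrg1, a stress-response gene, had 19.7 and 25.3 CPM in knock-in cells and 36.7 and 30.7 CPM in wild-type cells, which put the log2 fold change at -0.59 with a standard error of 0.19 (edgeR, adjusted p = 0.368), and at -0.50 with the GC correction (adjusted p = 0.110). Vegfa, the vascular growth factor, had 77.8 and 96.7 CPM in knock-in cells and 111 and 110.2 CPM in wild-type cells, which put the log2 fold change at -0.34 with a standard error of 0.16 (edgeR, adjusted p = 0.469). Both were lower in each knock-in library than in each wild-type library and passed as lower without wild-type 1 (by edgeR, adjusted p = 0.00535 for Ndrg1 and 0.00848 for Vegfa) and without wild-type 2 (1.14e-05 and 0.0284).

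Of the HIF prolyl hydroxylases, themselves HIF targets, Egln3 had 42.2 and 41.7 CPM in knock-in cells and 58.0 and 48.0 CPM in wild-type cells. Egln1, the main oxygen sensor, had 35.9 and 39.5 CPM in knock-in cells and 49.3 and 39.3 CPM in wild-type cells. Both passed as lower only without wild-type 2 (by edgeR, adjusted p = 0.00345 for Egln3 and 0.0317 for Egln1). With the GC correction and all 4 libraries their log2 fold changes were -0.22 for Egln3 and -0.03 for Egln1. The mitophagy receptors differed in sign, with Bnip3 at 64.1 and 72.0 CPM in knock-in cells against 84.8 and 73.7 CPM in wild-type cells (log2 fold change -0.22) and Bnip3l at 144 and 146 CPM in knock-in cells against 149 and 123 CPM in wild-type cells (0.09). With the GC correction they were -0.46 (by edgeR, adjusted p = 0.099) and -0.13.

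Ero1l, an oxidase of the endoplasmic reticulum, changed side with the library left out. It had 120 and 139 CPM in knock-in cells and 195 and 98.1 CPM in wild-type cells. Its log2 fold change was 0.40 without wild-type 1 (by edgeR, adjusted p = 0.00192) and -0.61 without wild-type 2 (adjusted p = 1.29e-06). With all 4 libraries it was -0.19, and -0.36 with the GC correction, and it did not pass in either. Car9 and Ankrd37 had at most 3.96 CPM in any library, and their log2 fold changes were -0.37 for Car9 (SE 0.36) and -0.26 for Ankrd37 (SE 0.31).

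**Figure D5:**
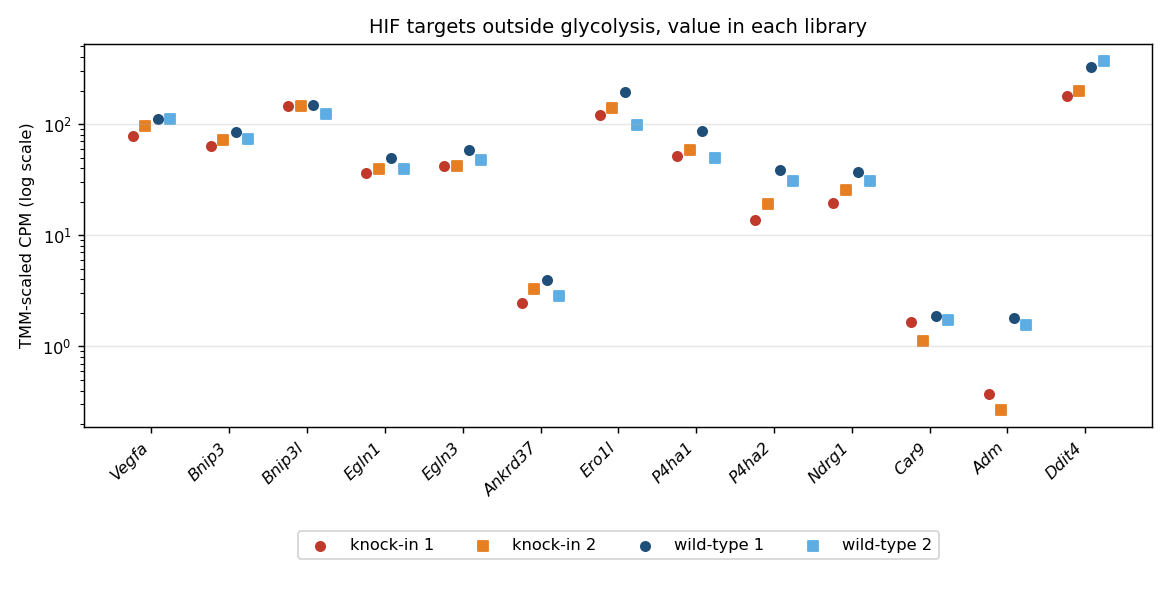
Expression of the 13 HIF-only targets (TMM-scaled CPM, log scale, vertical axis) in each library, with knock-in libraries left of wild-type libraries within each gene. Both knock-in points lie below both wild-type points for 8 genes, by most for Adm, P4ha2 and Ddit4, while wild-type 1 and wild-type 2 lie on either side of the knock-in points for Ero1l and P4ha1.

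Summed levels of fibroblast markers, mostly through Thy1 and Pdgfrb, and of primitive endoderm markers through Col4a1, were also lower in knock-in cells. Of 8 primitive endoderm markers 6 were tested, and their summed level was 28.8 and 28.9 TPM in knock-in cells and 61.4 and 54.9 TPM in wild-type cells, with Col4a1, a basement membrane collagen, the main part of it at 22.5 and 24.0 TPM in knock-in cells and 54.9 and 48.5 TPM in wild-type cells. Col4a1 had 53.3 and 53.9 CPM in knock-in cells and 118 and 111 CPM in wild-type cells, and passed as lower with the GC correction (by edgeR, adjusted p = 0.00391). For the 5 other tested primitive endoderm markers the groups overlapped. Foxa2 was at most 0.136 CPM and Sox17 at most 0.493 CPM in any library. Germ layer markers summed to 27.3 and 26.6 TPM in knock-in cells and 28.5 and 35.1 TPM in wild-type cells. Of 10 fibroblast markers 5 were tested, and the 10 summed to 18.8 and 21.5 TPM in knock-in cells and 31.9 and 32.9 TPM in wild-type cells. Thy1 was the main part, at 12.9 and 14.3 TPM in knock-in cells and 19.2 and 21.8 TPM in wild-type cells. Pdgfrb followed at 4.71 and 5.53 TPM in knock-in cells and 10.5 and 8.93 TPM in wild-type cells. Col1a1 and Col1a2 were also lower, with at most 2.82 CPM in any library, and for Pdgfra the groups overlapped. Lum and Twist2 had 0 counts in all libraries. The part of these markers in the lower HIF-only targets was not tested.

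Reads that overlap a neighbouring gene were lost as ambiguous for some members. Counting the strands apart returned 175% more reads for Ankrd37, 108% for Bnip3, 97.3% for Ndrg1, 59.6% for Gpi1, 56.1% for Aldoa, 38.8% for Hif1a, 31.1% for Car9 and 23.0% for Slc2a1. All other members gained at most 2.21%, among them Ddit4, P4ha2, Adm and Pfkfb3. With these reads counted, 35 members were again below 0 and edgeR called 0 of 42, with 1 higher and 8 lower at an unadjusted p under 0.05. The order of levels was not redone with these reads, and the places of Aldoa and Gpi1 in it could rise.

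The other genes of the pathways, listed by textbook role, had no call by edgeR or DESeq2 with all 4 libraries and no GC correction. Of 35 further genes of glycolysis and its branches 27 were tested, and 0 passed in either direction (1 at an unadjusted p under 0.05), with 14 below 0 and 13 above and a median log2 fold change of -0.02. The GC correction put 10 below 0 and 17 above, with a median of 0.08. The most abundant were Tkt, the transketolase of the pentose phosphate pathway, with 854 and 838 CPM in knock-in cells and 794 and 1032 CPM in wild-type cells, and Pgd of the same pathway, with 311 and 301 CPM in knock-in cells and 292 and 362 CPM in wild-type cells. Of 35 further HIF pathway genes and targets 34 were tested and 0 passed (6 at an unadjusted p under 0.05), with 28 below 0 and 6 above and a median of -0.19. After the correction 24 of these were below 0 and 10 above, with a median of -0.10. Their most abundant members were Mif, a cytokine, with 845 and 798 CPM in knock-in cells and 721 and 1170 CPM in wild-type cells, and Tfrc, the transferrin receptor, with 615 and 633 CPM in knock-in cells and 657 and 373 CPM in wild-type cells.

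With the GC correction 0 of the 27 further glycolysis genes and 1 of the 34 further HIF genes passed. That gene was Stc2, a secreted glycoprotein, with 68.9 and 67.9 CPM in knock-in cells and 97.5 and 123 CPM in wild-type cells, which put the log2 fold change at -0.69 with a standard error of 0.17 (edgeR, adjusted p = 0.214) without and -0.60 (SE 0.13, adjusted p = 0.0393) with the correction. Stc2 also passed as lower without wild-type 1 (by edgeR, adjusted p = 6.58e-13) and without wild-type 2 (0.000229). Without wild-type 1, 2 of the further glycolysis genes passed as higher and 2 as lower, and 6 of the further HIF genes passed as higher and 10 as lower, where 19.0% and 13.1% of all genes passed. Without wild-type 2, 0 of the further glycolysis genes passed, and of the further HIF genes 0 passed as higher and 9 as lower, where 3.68% of all genes passed as lower.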

How the data were processed

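RNA was measured in 2 knock-in and 2 wild-type libraries. The deposited tables hold read counts per gene from STAR 2.5.3a on GRCm38 (mm10) after Trim Galore, per the submitters' processing notes, and the authors applied no scaling to them. The unstranded column was used, since the strand columns split evenly (50.2% to 50.5% in the reverse one). Reads in the 4 summary lines (unmapped 2.38% to 4.39%, multimapping 3.80% to 4.46%, outside features 2.23% to 3.67%, ambiguous 5.96% to 6.38%) were left out. Of 54838 identifiers 54809 matched GENCODE M21, which supplied symbols, coordinates, lengths and GC content.

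The lines were compared with edgeR 4.0.16 in R 4.3.3 (TMM, filterByExpr with a minimum count of 10, quasi-likelihood F test, Benjamini-Hochberg over 15191 genes, threshold 0.05). The standard error is the absolute log2 fold change over the square root of F. The GC correction fitted each library's log2 CPM deviation with a 5-df natural spline of the longest transcript's GC content, used as an offset. Levels per length used the union of a gene's exons. Near-identical copies were transcripts of other genes with at least 90% identity over at least 200 bases and 50% of either length. DESeq2 1.42.0, other filters and scaling, left-out libraries and a replicate block were alternatives. P-values measure the spread between these samples only.

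The members and lists were chosen with earlier results of these data known. Full values are given for members past the threshold with or without the GC correction and the 2 members per role with the largest fold change. They are also given for Hif1a and for the leading paralog among the members of each family. Beyond that rule, members were given for their role after their values were seen. Of the other pathway genes, those past the threshold and the 2 most abundant per list are named.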

Additional observations from a re-analysis of the deposited data

How the results depend on the processing

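With all 4 libraries and no GC correction, edgeR called 0 members higher and 0 lower under TMM, DESeq2 size factors, the stricter filter and summed strand columns. The number called lower was 4 with no low-count filter, 2 with the DESeq2 Wald test, 4 with the GC correction, 4 with the GC correction and replicate block, 5 with it without wild-type 1, and 7 with it without wild-type 2. Leaving out each library gave 0 to 5 members higher and 0 to 14 lower, and both left-out knock-in libraries gave 0. Over all genes, with 1 higher and 9 lower in the fit as reported, leaving out each library gave 1 to 2975 higher and 14 to 2040 lower. No low-count filter gave 63 higher and 291 lower, the DESeq2 Wald test 7 and 116, and the GC correction 50 and 130. The GC correction gave 149 and 254 with the replicate block, 939 and 627 without wild-type 1, and 320 and 326 without wild-type 2. The fits also differed in common dispersion, edgeR's estimate of the spread between libraries of the same line. It was 0.0237 with all 4 libraries, 0.00501 without wild-type 1 and 0.00502 without wild-type 2. Without knock-in 1 it was 0.0410, and without knock-in 2 it was 0.0412. The cause of the differences in calls was not tested.

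The labels number the replicates but name no pairing, and libraries of the same number did not deviate together (correlation -0.12 over genes). With the replicate block, 3 members were lower (P4ha2, Adm and Ddit4) and 46 genes were higher and 151 lower over all. A crossed pairing, chosen after seeing the data, gave 4 members lower, and 175 genes higher and 334 lower.

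The median of the enzymes moved to 0.0284 with the GC correction, 0.0325 with the correction and replicate block and 0.11 with the correction without wild-type 2. That of the HIF-only targets kept its sign in all fits run. Ero1l ranged from -0.61 without wild-type 2 to 0.40 without wild-type 1, where its call reversed. Mean shares moved with the length used. With no length correction Slc2a1 had 39.2%, Hk2 82.1%, Pfkl 42.3%, Aldoa 96.4%, Eno1 99.0%, Ldha 93.8%, Pdk1 90.8% and Pfkfb3 80.4%. With the longest transcript Slc16a3 had 62.0%, Hk2 78.1%, Pfkl 59.7%, Aldoa 98.0%, Eno1 98.8%, Ldha 91.6%, Pdk1 80.2% and Epas1 50.1%. With summed strand columns, added after seeing the data, Slc2a1 had 61.9%, Aldoa 97.9% and Epas1 47.1%, and with Eno1b added Eno1 had 60.7%. Fits without a library rest on a lone one in its line, and depth limits Adm, Car9 and Ankrd37.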
